A study of Homo sapiens with 12 samples.

Results

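The hypoxia-inducible factors (HIF) and the enzymes that mark them for destruction were followed in SNU449 cells, with and without Axl and with and without resistance to regorafenib (Rego). The 8 genes were taken by name, namely HIF1A, EPAS1, ARNT, EGLN1, EGLN2, EGLN3, VHL and HIF1AN, and 6 of them had a row among the 15601 genes of the table over all libraries. EGLN1 and EGLN2 were not analysed here. SNU449 is a human hepatocellular carcinoma cell line of mesenchymal character, and the SNU449-Axl-KO cells are its derivative from which Axl, a receptor tyrosine kinase, was removed by CRISPR/Cas9. The groups compared were SNU449 control cells (naive, with Axl), Rego-resistant SNU449 cells (with Axl), SNU449-Axl-KO control cells (naive, without Axl) and Rego-resistant SNU449-Axl-KO cells (without Axl). Both resistant populations had been adapted stepwise to Rego, an inhibitor of several kinases, until they grew at 2 times the IC50. The growth notes can also be read as Rego being given to all derived cells at splitting, whereas the control samples are labelled naive and were taken as untreated here. Each group had 3 libraries, which the series describes as technical triplicates. Each group is therefore 1 cell population, p-values cover only the spread between libraries, and a difference between groups cannot be told apart from a difference between populations. Whether the SNU449-Axl-KO cells are 1 clone was not given in the sources used here.

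HIF acts as a dimer of an oxygen-regulated α subunit and the constant β subunit. HIF1A encodes HIF-1α, EPAS1 encodes HIF-2α and ARNT encodes the β subunit. In the presence of oxygen, prolyl hydroxylases of the EGLN family modify the α subunits, and the VHL protein, the recognition subunit of a ubiquitin ligase, then directs them to the proteasome. HIF1AN encodes factor inhibiting HIF, an asparaginyl hydroxylase that blocks the contact of the α subunits with coactivators. Most of this control acts on the protein. EGLN3 is itself known as a transcriptional target of HIF, and liver tumours are known for hypoxic regions in which the pathway is active. The transcripts described here do not measure HIF protein or its activity.

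Levels are given as library values. Each is a whole number, read here as the authors' variance-stabilized level turned back from the log2 scale, with the effect of the preparation date taken out. This unit was inferred from the methods and the values. A library value is no read count, and changes of weakly expressed genes are compressed on this scale. Genes that were nearly without reads (authors' mean below 2.0 normalized counts, 940 genes) had a median library value of 24, with 20 and 32 as 5th and 95th percentiles. The depth of the libraries is unknown, and the authors' mean normalized counts summed to 4.159e+06 to 4.917e+06 per table. Differences are differences of mean log2(library value + 1), tested with limma over all 15601 genes with the replicate number as a block, and a gene was called when its p, adjusted by the method of Benjamini and Hochberg, was below 0.05. The cells carried their labels, since AXL library values were 715 to 1271 in the 6 libraries with Axl and 33 to 53 in the 6 libraries of SNU449-Axl-KO cells. All 5 mesenchymal markers were tested, and their summed library values, carried by VIM, were 16054 to 29377 in cells with Axl and 18537 to 27049 in cells without. One of them, FN1, was called in all 5 comparisons, the other 4 in none. FN1 library values were 1437 to 2923 in SNU449 control cells, 336 to 650 in Rego-resistant SNU449, 377 to 559 in SNU449-Axl-KO control cells and 1351 to 4850 in Rego-resistant SNU449-Axl-KO cells. Its part in the results below was not tested. Of 10 hepatocyte markers 4 were tested, and their summed values were 84 to 117 in SNU449 control cells, 96 to 110 in Rego-resistant SNU449, 123 to 156 in SNU449-Axl-KO control cells and 283 to 654 in Rego-resistant SNU449-Axl-KO cells. This last range is mostly FGB, at 189, 547 and 294. FGB and FGA were called higher with Rego in SNU449-Axl-KO cells (2.49 and 0.68) and without Axl in resistant cells (3.44 and 0.71), FGB in the interaction (2.38), and AFP without Axl in control cells (0.67). Their part in the results of these comparisons was not tested. The defining hepatocyte gene ALB was not among the tested genes, so that the label liver could not be checked by it. Neither were any of the 5 endothelial markers, and the 2 leukocyte markers tested of 5 had single values of 19 to 39. As in all bulk samples, fewer cells that carry a transcript and less of it per cell cannot be told apart.

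Transcripts of 2 of the 6 genes changed with Rego resistance in SNU449, and in opposite directions. EGLN3 rose 3.75-fold and EPAS1 fell to 0.378 of its level on the scale of the library values, which compresses low levels. In mean normalized counts solved from the authors' tables, EPAS1 fell to 0.217 of its level, and EGLN3 stood at 75.1 against 0, so that no fold is given. HIF1A, ARNT, VHL and HIF1AN did not pass the test. In SNU449-Axl-KO cells none of the 6 genes was called upon resistance. The difference of the Rego effect between cells with and without Axl passed the test for EGLN3 and for none of the other 5. EGLN3 has a row only owing to the group in which it is high, so that this test is no independent support for its pattern. Overlap of libraries between groups is given below as a description, since the share of all genes without overlap was not counted.

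The sequences upstream of the genes that changed are shown because HIF binds DNA at short core motifs, whose presence can be read directly. They are the 250 bases before a start of transcription in the RefSeq promoter table (GRCh38.p14), written 5′ to 3′ on the strand of the gene. Capitals mark the core motifs ACGTG and GCGTG, searched on both strands and therefore also shown as their reverse complements. A palindrome that reads as ACGTG on both strands counts for each. EGLN3 lies on the minus strand and its window is chr14:33951075-33951324, inside the longer span that GENCODE gives the gene. EPAS1 lies on the plus strand and its window is chr2:46297157-46297406, also inside the longer span that GENCODE gives the gene.
EGLN3: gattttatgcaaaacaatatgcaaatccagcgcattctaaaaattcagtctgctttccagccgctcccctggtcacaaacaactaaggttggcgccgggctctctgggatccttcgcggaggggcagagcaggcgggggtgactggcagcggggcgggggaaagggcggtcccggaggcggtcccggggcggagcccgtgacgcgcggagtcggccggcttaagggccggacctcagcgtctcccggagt
EPAS1: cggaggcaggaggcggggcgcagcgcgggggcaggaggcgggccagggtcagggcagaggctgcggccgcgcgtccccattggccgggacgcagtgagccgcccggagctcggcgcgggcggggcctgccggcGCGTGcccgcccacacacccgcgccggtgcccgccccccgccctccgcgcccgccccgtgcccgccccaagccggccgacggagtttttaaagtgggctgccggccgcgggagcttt
The EGLN3 window held neither motif. The EPAS1 window held 1 GCGTG but not the other motif. Of all 35116 windows of this length in the table, 18.5% held ACGTG and 32.2% held GCGTG. A missing match says only that these letters are not in this window.

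EGLN3 encodes a prolyl hydroxylase of the α subunits. The gene lies at 14:33924227-34462774 on the minus strand (GRCh38, identifier ENSG00000129521.15). Its library values were 21, 24 and 27 in SNU449 control cells. In Rego-resistant SNU449 they were 110, 123 and 58. In SNU449-Axl-KO cells they were 21, 29 and 33 in control cells and 29, 17 and 27 in Rego-resistant cells. The 3 libraries of Rego-resistant SNU449 thus lay above all others, while the other 9 libraries overlapped, at 17 to 33, where genes with almost no reads lie.

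The rise of EGLN3 in Rego-resistant over control SNU449 was 1.91 on the log2 scale (SE 0.270, 95% confidence interval 1.34 to 2.47, limma adjusted p = 0.000196). In SNU449-Axl-KO cells the difference was -0.19 (95% confidence interval -0.76 to 0.38, adjusted p = 0.770). The Rego effect in SNU449-Axl-KO minus that in SNU449, tested as an interaction, was -2.10 (SE 0.382, 95% confidence interval -2.90 to -1.29, adjusted p = 0.00281). Among Rego-resistant cells, EGLN3 was lower without Axl by a difference of -1.92 (SE 0.270, adjusted p = 0.000307), that is 0.265 of the level with Axl. Among control cells the difference between backgrounds was 0.18 (adjusted p = 0.768). These comparisons share the libraries of Rego-resistant SNU449 and are not independent of each other. The 3 libraries of this group differed among themselves (SD 0.578 on the log2 scale), and the third, with the value 58, stood nearer to the other groups.

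Since the library values compress low levels, group means of normalized counts were also solved from the authors' mean normalized counts of the tables, which pool different groups. Over 8193 genes with a row in all 7 tables and a mean of 50 or more, the solved means returned the authors' values with a median error of 0.272%. EGLN3, with 4 tables and a mean of 21.7, is not among these genes, so that this error does not apply to it. They carry no spread between libraries and no test. For EGLN3 they were 75.1 in Rego-resistant SNU449, 5.67 in SNU449-Axl-KO control cells and 6.15 in Rego-resistant SNU449-Axl-KO cells. In SNU449 control cells the solution was at 0, the lowest value it could take. Rego-resistant SNU449 stood 13.3 and 12.2 times above these SNU449-Axl-KO groups, folds that rest on small solved means of unknown error. Of the 6 pairwise tables, EGLN3 had a row in the 3 that hold Rego-resistant SNU449. It thus passed the authors' filter on low counts only through the group where it is high and had to differ, and its p-values add no independent support to the levels.

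**Figure D1:**
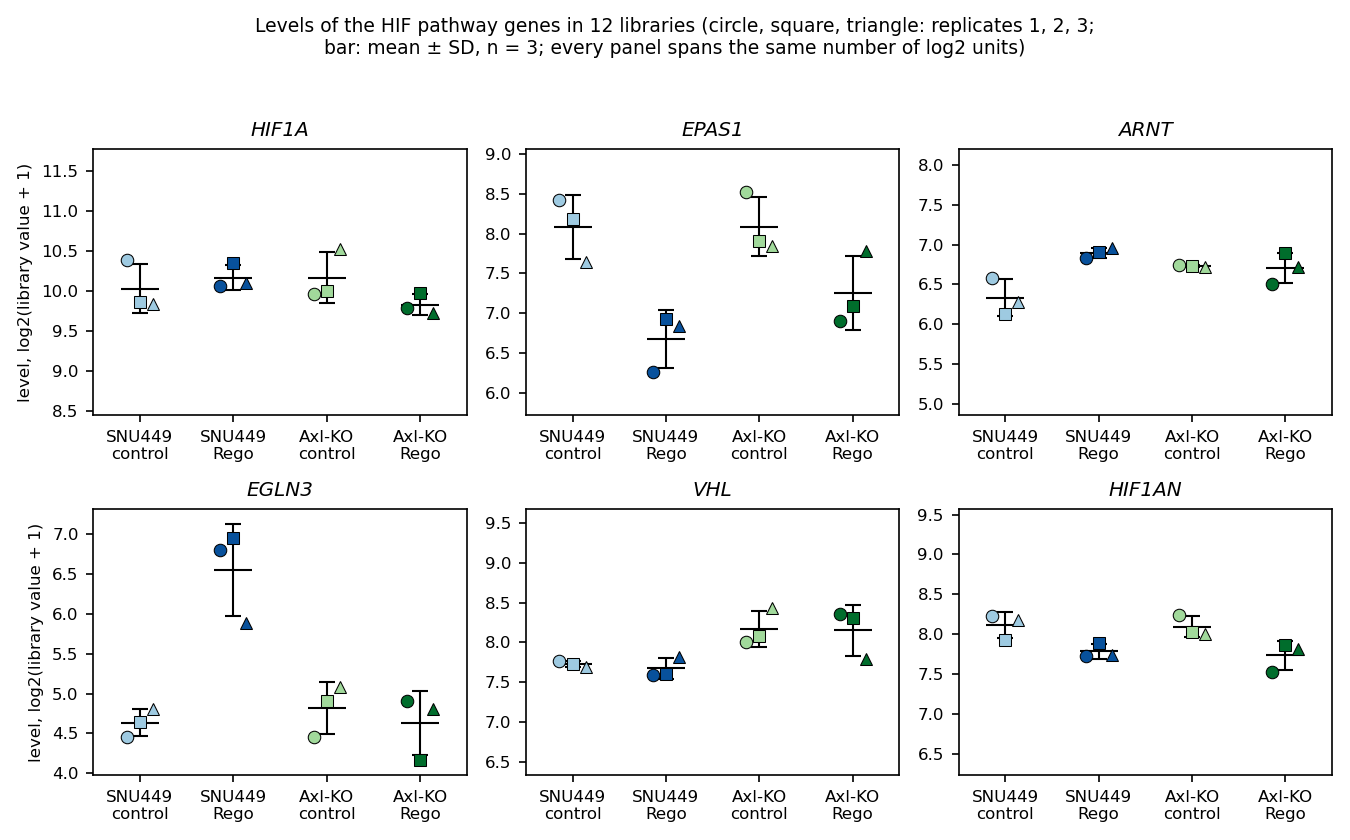
Levels of the 6 genes, as log2(library value + 1), in the 3 libraries of each of the 4 groups. Circles, squares and triangles stand for replicates 1, 2 and 3, and bars for the mean ± SD (n = 3). EGLN3 stands apart in the libraries of Rego-resistant SNU449, and EPAS1 is lower in the resistant cells of both backgrounds.

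The annotated span of EGLN3 holds another gene on the same strand, SPTSSA, which encodes a small subunit of serine palmitoyltransferase and was looked at after the EGLN3 values were seen. The exons of both genes share 0 bases in GENCODE 44. SPTSSA library values were 300, 225 and 318 in SNU449 control cells and 802, 1026 and 422 in Rego-resistant SNU449. They were 447, 421 and 932 in SNU449-Axl-KO control cells and 419, 463 and 359 in Rego-resistant SNU449-Axl-KO cells. Like EGLN3, SPTSSA rose with Rego in SNU449 (1.34, adjusted p = 0.0114), was called in the interaction (-1.78, adjusted p = 0.0210) and had its lowest value of Rego-resistant SNU449 in the third library. Unlike EGLN3, it was not called between backgrounds in resistant cells (-0.77, adjusted p = 0.186). With Rego in SNU449-Axl-KO cells its difference was -0.44 (adjusted p = 0.486), and between backgrounds in control cells it was 1.01 (adjusted p = 0.0565), where that of EGLN3 was 0.18. The 40 tested genes nearest to EGLN3 had a median difference of 0.16 with Rego in SNU449, with 4 called higher and 1 lower, and EGLN3 ranked 1 among these 41 genes. A part of SPTSSA reads or of the chromosomal neighbourhood in the EGLN3 result was not tested.

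The 3 genes whose levels were most like that of EGLN3 over the 12 libraries, among 8189 better expressed genes (authors' mean of 50 or more), were LIN52, IGFBP5 and KIAA0586 (Pearson r = 0.945, 0.943 and 0.938). These correlations are descriptions, and the points share their groups. IGFBP5, which encodes an insulin-like growth factor binding protein, had library values of 5599, 10422 and 3564 in Rego-resistant SNU449 and of 18 to 45 in the 9 other libraries. LIN52 and KIAA0586 lie on chromosome 14 like EGLN3, and their mean log2 levels were 6.34 and 6.75 in SNU449 control cells and 6.89 and 7.30 in Rego-resistant SNU449.

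EPAS1 encodes HIF-2α, the α subunit with the narrower tissue distribution. The gene lies at 2:46293667-46386697 on the plus strand (ENSG00000116016.14). Its library values were 342, 290 and 199 in SNU449 control cells and 76, 121 and 114 in Rego-resistant SNU449. All resistant libraries were below all control libraries. The difference was -1.40 (SE 0.275, 95% confidence interval -1.98 to -0.82, adjusted p = 0.00337). In SNU449-Axl-KO cells the values were 366, 239 and 228 in control and 119, 135 and 219 in Rego-resistant cells. There too all resistant libraries were below the control libraries, but the difference of -0.83 did not pass the test (95% confidence interval -1.41 to -0.25, adjusted p = 0.0986). Without the third library of Rego-resistant SNU449-Axl-KO cells, which had the value 219, it was -1.18 and passed (adjusted p = 0.0362).

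The effect of Rego on EPAS1 was not shown to differ between cells with and without Axl (interaction 0.57, 95% confidence interval -0.24 to 1.39, adjusted p = 0.463). In control cells the mean levels with and without Axl differed by 0.00498 (95% confidence interval -0.57 to 0.58, adjusted p = 0.998). Among resistant cells EPAS1 was 0.58 higher without Axl, with overlapping libraries (adjusted p = 0.275). The solved mean normalized counts of EPAS1 were 254.8 in SNU449 control cells, 55.3 in Rego-resistant SNU449, 274.6 in SNU449-Axl-KO control cells and 161.7 in Rego-resistant SNU449-Axl-KO cells. They follow the order of the library values with a wider range. The 40 nearest genes had medians of -0.14 and -0.01 with Rego in the cells with and without Axl, and EPAS1 ranked 40 of 41 in both.

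NNMT, RTL8A and SNHG3 were most like EPAS1 over the 12 libraries (Pearson r = 0.933, 0.911 and 0.902 among 8188 genes). NNMT encodes nicotinamide N-methyltransferase. Its library values were 744 to 1507 in SNU449 control cells and 395 to 561 in Rego-resistant SNU449. In SNU449-Axl-KO cells they were 1408 to 1507 in control and 518 to 754 in Rego-resistant cells. Since NNMT was chosen for its likeness to EPAS1 in these libraries, these values are a description.

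HIF1A, for HIF-1α, lies at 14:61695513-61748259 on the plus strand (ENSG00000100644.17). The library values of HIF1A were 1336, 928 and 918 in SNU449 control cells, 1066, 1303 and 1094 in Rego-resistant SNU449, 994, 1027 and 1479 in SNU449-Axl-KO control cells, and 884, 1007 and 842 in Rego-resistant SNU449-Axl-KO cells. The groups overlapped, except that all Rego-resistant libraries without Axl lay below those with Axl. The difference with Rego was 0.14 in SNU449 (95% confidence interval -0.30 to 0.58, adjusted p = 0.766) and -0.34 in SNU449-Axl-KO cells (95% confidence interval -0.78 to 0.11, adjusted p = 0.425). Between backgrounds it was 0.14 in control (adjusted p = 0.779) and -0.34 in resistant cells (adjusted p = 0.427). The antisense transcript HIF1A-AS1 shares 133 exonic bases with HIF1A on the opposite strand, and its authors' mean normalized count was 2.38 against 1082 for HIF1A.

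ARNT, for the β subunit, lies at 1:150809713-150876708 on the minus strand (ENSG00000143437.21). ARNT had library values of 95, 69 and 77 in SNU449 control cells and 113, 119 and 123 in Rego-resistant SNU449. The libraries did not overlap, and the difference of 0.56 came short of the threshold (95% confidence interval 0.16 to 0.97, adjusted p = 0.0823). It passed without the replicate block (adjusted p = 0.0210) and without the first SNU449 control library, then at 0.73 (adjusted p = 0.0467). In SNU449-Axl-KO cells the values were 106, 105 and 104 in control and 90, 118 and 104 in Rego-resistant cells, a difference of -0.02 (adjusted p = 0.972). The solved mean normalized counts gave 51.6 in SNU449 control cells and 85.5, 87.0 and 90.3 in the other groups, so that SNU449 control cells had the lowest mean. The interaction of -0.59 did not pass the test (95% confidence interval -1.16 to -0.02, adjusted p = 0.238), nor did the difference between backgrounds in control cells (0.39, adjusted p = 0.242) or in resistant cells (-0.19, adjusted p = 0.666).

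VHL lies at 3:10141778-10153667 on the plus strand (ENSG00000134086.9). Its means were higher without Axl in control and in resistant cells, by differences that did not pass the test. The values were 217, 211 and 206 in SNU449 control cells and 192, 194 and 225 in Rego-resistant SNU449. Without Axl they were 256, 270 and 343 in control cells and 326, 316 and 220 in Rego-resistant cells. All SNU449-Axl-KO control libraries lay above the SNU449 control libraries, whereas among resistant cells 1 library without Axl overlapped. The differences of 0.44 in control cells (95% confidence interval 0.02 to 0.86, adjusted p = 0.209) and 0.48 in resistant cells (95% confidence interval 0.05 to 0.90, adjusted p = 0.207) did not pass the test. When libraries were centred on the spike-in RNAs, the latter was 0.77 and passed (adjusted p = 0.0236). With that centring the median of all genes moved to 0.31 in this comparison.

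The genes next to VHL had similar differences. The 40 nearest tested genes, over 9.93 Mb of chromosome 3, had a median of 0.39 between backgrounds in control cells, with 5 called higher and none lower. In resistant cells their median was 0.37, with 1 called higher and none lower. VHL ranked 19 of 41 in control cells and 13 of 41 in resistant cells, within its neighbourhood. With Rego, VHL differed by -0.06 in SNU449 (95% confidence interval -0.48 to 0.36, adjusted p = 0.915) and by -0.02 in SNU449-Axl-KO cells (95% confidence interval -0.44 to 0.40, adjusted p = 0.975).

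HIF1AN, for factor inhibiting HIF, lies at 10:100529072-100559998 on the plus strand (ENSG00000166135.14). HIF1AN had library values of 300, 243 and 288 in SNU449 control cells and 211, 237 and 212 in Rego-resistant SNU449. In SNU449-Axl-KO cells they were 302, 261 and 255 in control and 184, 232 and 224 in Rego-resistant cells. In either background all resistant libraries were below the control libraries, a separation whose share over all genes was not counted. The differences were small, at -0.33 with Axl (95% confidence interval -0.72 to 0.06, adjusted p = 0.331) and -0.36 without (95% confidence interval -0.74 to 0.03, adjusted p = 0.321), and neither passed the test. Between backgrounds the difference was -0.02 in control (adjusted p = 0.968) and -0.05 in resistant cells (adjusted p = 0.926). Its exons share 325 bases with NDUFB8 on the opposite strand, for which the differences with Rego were -0.21 (adjusted p = 0.610) and -0.20 (adjusted p = 0.656).

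Over the 12 libraries, HIF1AN and EPAS1 varied together (Pearson r = 0.78), and EPAS1 and EGLN3 varied in opposite directions (r = -0.70). The remaining 13 pairs of the 6 genes had r between -0.50 and 0.44. These are descriptions over libraries that share their groups.

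**Figure D2:**
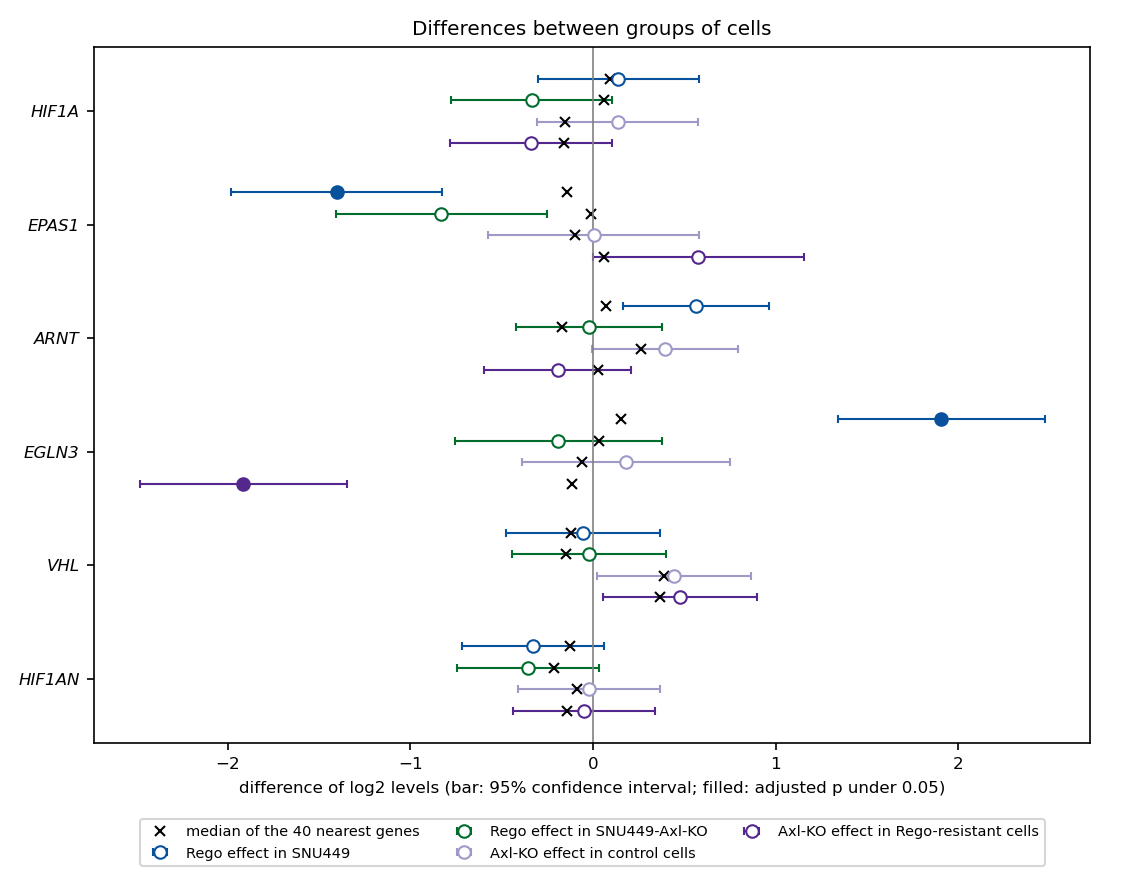
Differences of mean log2 levels for the 6 genes in the 4 comparisons, with 95% confidence intervals. Filled points passed the test at an adjusted p under 0.05, and crosses give the median of the 40 nearest tested genes. The 3 filled points are EGLN3 (1.91 with Rego in SNU449 and -1.92 without Axl in resistant cells) and EPAS1 (-1.40 with Rego in SNU449).

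Counted over the group, 2 of 6 genes were called with Rego in SNU449, where 7.81% of all genes were called, 4.31% higher and 3.5% lower. With Rego in SNU449-Axl-KO cells 0 of 6 were called, where 4.35% of all genes were, 2.54% higher and 1.81% lower, and 1 of 6 had an unadjusted limma p under 0.05. Between backgrounds in control cells 0 of 6 were called, where 7.45% of all genes were, 4.03% higher and 3.43% lower, and again 1 of 6 had an unadjusted limma p under 0.05. In resistant cells 1 of 6 was called, against 4.37% of all genes, 2.44% higher and 1.93% lower. In the interaction 1 of 6 was called, against 5.87% of all genes, 2.92% higher and 2.95% lower. With 6 genes these shares are descriptions. Over the 5 genes with a row in all pairwise tables, that is without EGLN3, 1 was called with Rego in SNU449 and 0 in each of the other comparisons.

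Of the other genes of the HIF machinery, 20 of 21 listed were tested. They include the second β subunit, the remaining subunits of the VHL ligase, coactivators and their inhibitors. With Rego in SNU449, 2 rose and none fell, or 10% of the list beside 7.81% of all genes. CITED4, which encodes a protein that binds the coactivators CBP and p300, had library values of 88, 66 and 74 in control and 427, 534 and 340 in resistant cells (2.48, adjusted p = 1.86e-06). ARNT2, a paralogue of ARNT, had 49, 50 and 62 in control and 165, 161 and 181 in resistant cells (1.64, adjusted p = 2.34e-05). Neither gene overlapped between these groups, which adds no support because both were named for being called.

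In SNU449-Axl-KO cells CITED4 was high in both groups, at 330 to 564 in control and 342 to 418 in resistant cells. Its difference between backgrounds in control cells was 2.42 (adjusted p = 3.16e-06), and the interaction was -2.63 (adjusted p = 9.39e-05). For ARNT2 the interaction was -1.15 (adjusted p = 0.0150), with values of 70 to 91 in control and 107 to 123 in resistant SNU449-Axl-KO cells. CITED2, which limits HIF by binding the same coactivators, was lower without Axl in control cells (-1.15, adjusted p = 0.00287). With Rego in SNU449-Axl-KO cells HSP90AA1, a chaperone that stabilizes HIF-1α, fell (-0.89, adjusted p = 0.0235), and it was the 1 gene called of this list, in no fit without SNU449-Axl-KO control replicate 1 or 2 or any 1 of the Rego-resistant SNU449-Axl-KO libraries. Between backgrounds in resistant cells 0 of 20 were called, beside 4.37% of all genes, and 4 had an unadjusted limma p under 0.05. The ligase subunits that work with VHL were not called with Rego in SNU449, with differences of 0.02 for ELOB, -0.33 for ELOC, 0.08 for CUL2 and -0.33 for RBX1.

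A list of 50 genes known to be induced by HIF was set beside the factors, and 46 of them were tested. With Rego in SNU449, 10 fell, 3 rose and 33 did not pass the test, beside 3.5% of all genes lower and 4.31% higher, with a median difference of -0.40 beside -0.000102 over all genes. Lower values were found for 33 of the 46, or 71.7%, beside 50.1% of all genes. Among those that fell were PDK1, which encodes a kinase that keeps pyruvate out of the Krebs cycle (-1.50, adjusted p = 0.000428), and BNIP3, a mitophagy receptor (-1.43, adjusted p = 0.000125). SLC2A3, a glucose transporter, LDHA, which makes lactate, and PGK1, a glycolytic enzyme, fell by 1.36, 1.16 and 1.11 on the log2 scale (adjusted p = 0.00120, 0.00649 and 0.0304). BNIP3L, P4HA1, HK1, TGFA and PFKFB4 were the others that fell. TGFA passed the authors' filter only through SNU449 control cells, where its library values were 44, 47 and 32. In each of the other 3 groups they were 21, 20 and 23, the low end of the scale, so that its fall is no independent result. Over the 41 targets with a row in all pairwise tables, 9 fell and 3 rose, with a median difference of -0.38. The rises were those of CXCR4, a chemokine receptor (2.00, adjusted p = 7.08e-06), CCND1, for cyclin D1 (1.24, adjusted p = 0.0391), and HMOX1, for heme oxygenase (0.93, adjusted p = 0.0219). EGLN3, counted here with the hydroxylases, is a known HIF target too and moved opposite to most of this list.

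PDK1 library values were 231, 226 and 326 in SNU449 control cells and 88, 91 and 91 in Rego-resistant SNU449. BNIP3 values were 1311, 1302 and 1749 in control and 587, 545 and 474 in resistant cells. CXCR4 values were 32, 20 and 21 in control cells, where genes with almost no reads lie, and 91, 102 and 101 in resistant cells. None of the 3 genes overlapped between these groups. They were named for the largest differences among called targets, so that this separation adds no support, and the share of all genes without overlap was not counted. The windows before PDK1 (plus strand, chr2:172555840-172556089) and BNIP3 (minus strand, chr10:131981924-131982173) are shown for comparison with those of EGLN3 and EPAS1, with the motifs in capitals as above.
PDK1: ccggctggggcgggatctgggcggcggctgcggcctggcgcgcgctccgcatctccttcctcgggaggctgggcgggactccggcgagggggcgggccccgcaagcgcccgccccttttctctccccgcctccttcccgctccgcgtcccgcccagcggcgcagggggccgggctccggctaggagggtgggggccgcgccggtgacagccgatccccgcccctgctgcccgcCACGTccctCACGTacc
BNIP3: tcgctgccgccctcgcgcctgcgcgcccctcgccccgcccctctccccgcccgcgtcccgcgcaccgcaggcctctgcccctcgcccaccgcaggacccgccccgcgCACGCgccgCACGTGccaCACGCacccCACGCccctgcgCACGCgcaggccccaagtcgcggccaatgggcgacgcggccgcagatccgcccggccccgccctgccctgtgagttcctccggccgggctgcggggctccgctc
The PDK1 window held 2 ACGTG, and the other PDK1 window of the table, chr2:172555123-172555372, held neither motif. The BNIP3 window held 2 ACGTG, from 1 palindrome, and 4 GCGTG. The windows of CXCR4, which are not shown, each held 0 ACGTG, and they held 1, 0 and 2 GCGTG. Of the tested HIF targets with a window in the table, 22 of 37 held ACGTG in at least 1 of their windows, beside 21.7% of 27305 genes in all. Of the targets that fell with Rego in SNU449 and have a window, 5 of 8 held it. Counts per gene favour genes with several windows. Counted per window, 5 of 17 windows of these 8 genes held ACGTG, or 29.4%, beside 42.6% for all tested targets and 18.5% of all windows. GCGTG was held by 35.3%, 52.5% and 32.2%, respectively. A match is no evidence of binding in these cells.

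In SNU449-Axl-KO cells 1 HIF target was called higher and 2 lower of 46 with Rego, or 6.52% beside 4.35% of all genes, with a median difference of -0.20. The hepatocyte markers FGB and FGA were called higher in the same comparison, and their part was not tested. The called HIF targets were CXCR4 (0.84, adjusted p = 0.0279), CA12, a carbonic anhydrase (-0.92, adjusted p = 0.0364), and HK1, a hexokinase (-0.75, adjusted p = 0.0208). CA12 was near the low end in the resistant cells of both backgrounds and had no row in the pairwise table of these 2 groups. This count was 0 in fits without any 1 of 5 single libraries, namely SNU449-Axl-KO control replicates 1 and 2 and each of the 3 Rego-resistant SNU449-Axl-KO libraries. Still, 32 of the 46, or 69.6%, had a lower mean in resistant cells, beside 49% of all genes. PDK1 and BNIP3 were already low in SNU449-Axl-KO control cells, with values of 92, 93 and 112 for PDK1 and of 637, 717 and 772 for BNIP3. The differences between backgrounds in control cells were -1.37 for PDK1 (adjusted p = 0.00119) and -1.03 for BNIP3 (adjusted p = 0.00290).

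The interaction was called for 5 HIF targets. It was positive for PDK1 (1.52, adjusted p = 0.00940), SLC2A3 (1.27, adjusted p = 0.0290) and BNIP3 (1.19, adjusted p = 0.0136), and negative for CXCR4 (-1.15, adjusted p = 0.0256). The fifth was TGFA (0.89), which was at the low end in both SNU449-Axl-KO groups and could not fall there, so that its interaction was set by the floor. SLC2A3 was near the low end in Rego-resistant SNU449, at 31, 23 and 22. CXCR4 was so in control cells, at 32, 20 and 21 with Axl and at 24, 28 and 33 without. All differences of SLC2A3 and CXCR4 that involve these groups are compressed. All genes were called at 5.87%. Of these 5 calls 1 was left without Rego-resistant SNU449-Axl-KO replicate 1. There were 2 calls without Rego-resistant SNU449 replicate 2, SNU449-Axl-KO control replicate 2 or Rego-resistant SNU449-Axl-KO replicate 2, and 3 without SNU449 control replicate 3, Rego-resistant SNU449 replicate 3 or SNU449-Axl-KO control replicate 3. Between backgrounds in control cells 4 targets were higher and 4 lower (5 in all without SNU449-Axl-KO control replicate 2), beside 4.03% and 3.43% of all genes. PLOD2, a lysyl hydroxylase of collagen (1.40, adjusted p = 5.50e-05), and CCND1 (1.30, adjusted p = 0.0328) were the furthest up. Over the 41 targets with a row in all pairwise tables, 4 were higher and 3 lower. TGFA, which passed the authors' filter only through SNU449 control cells, is not among these 41. In resistant cells SLC2A3 was higher without Axl (1.64, adjusted p = 0.000374) and CXCR4 lower (-0.92, adjusted p = 0.0161), of which 1 call was left without Rego-resistant SNU449-Axl-KO replicate 1. These were 2 of 46 targets, or 4.35%, beside 4.37% of all genes, with FGB and FGA again called higher.

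**Figure D3:**
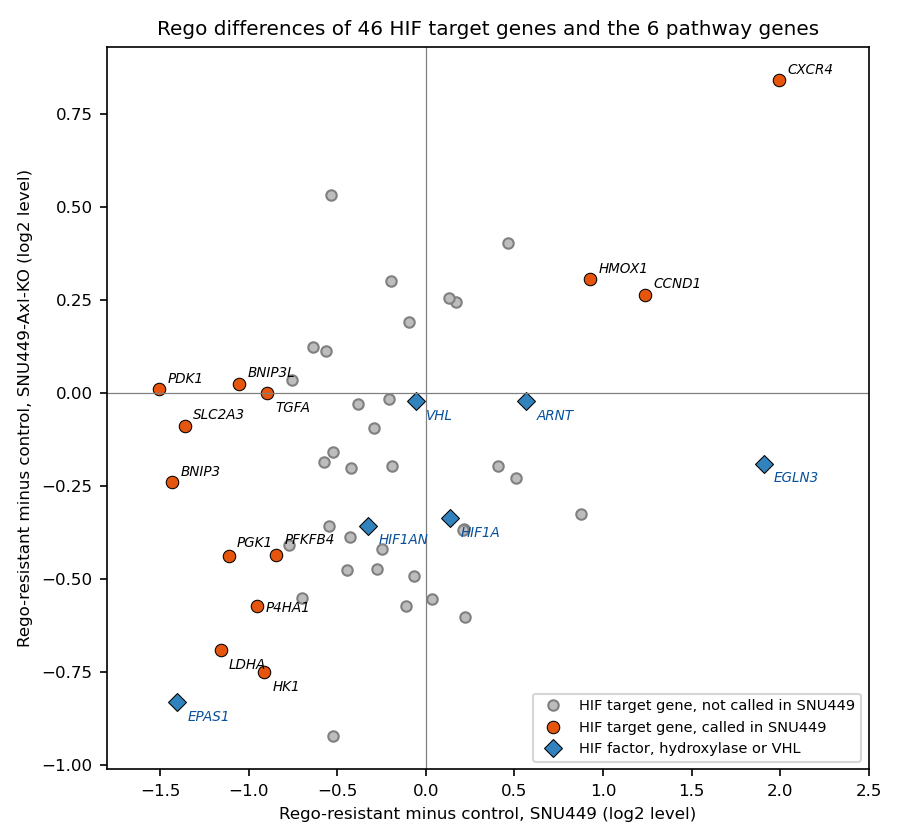
Differences of mean log2 levels between Rego-resistant and control cells in SNU449 (horizontal axis) and in SNU449-Axl-KO cells (vertical axis) for the 46 HIF targets and the 6 genes of the group. Orange points were called in SNU449, and the axes have different ranges. EGLN3 lies at 1.91 and -0.19, and EPAS1 at -1.40 and -0.83, on the side of the 10 targets that fell in SNU449.

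The HIF hydroxylases belong to the dioxygenases that use oxygen and 2-oxoglutarate, an intermediate of the Krebs cycle. Of 24 other dioxygenases of this kind 23 were tested, among them histone and nucleic acid demethylases. This list leaves out P4HA1 and PLOD2, collagen hydroxylases of the same kind, which were called among the HIF targets above. P3H2, a collagen prolyl hydroxylase, was the 1 gene of the list called in the 5 comparisons. It rose with Rego in SNU449 (0.80, adjusted p = 0.0416), was higher without Axl in control cells (1.45, adjusted p = 0.000803), and had an interaction of -1.37 (adjusted p = 0.0169). Its library values were 174, 198 and 324 in SNU449 control cells, 437, 433 and 311 in Rego-resistant SNU449, 729, 577 and 544 in SNU449-Axl-KO control cells, and 392, 441 and 397 in Rego-resistant SNU449-Axl-KO cells. With Rego in SNU449 1 resistant library overlapped the controls, and the call was lost in 8 of the 12 fits that left out 1 library, as was the interaction in 5 of 12. With Rego in SNU449-Axl-KO cells 0 of 23 were called, beside 4.35% of all genes, and 4 had an unadjusted limma p under 0.05, and between backgrounds in resistant cells 0 were called, beside 4.37%, and 3 had one. Counts of 0 or 1 among these 23 genes lie near these shares, and they do not cover the dioxygenases counted as HIF targets.

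All 12 enzymes of the Krebs cycle list were tested. SDHA, a subunit of succinate dehydrogenase, rose with Rego in SNU449 (0.80, adjusted p = 0.0247), a call lost without SNU449 control replicate 1 or Rego-resistant SNU449 replicate 1 or 2. IDH3G fell with Rego in SNU449-Axl-KO cells (-1.09, adjusted p = 0.0455), a call lost in 7 of the 12 fits that left out 1 library, and IDH2 was lower without Axl in control cells (-1.05, adjusted p = 0.00442). Both encode isocitrate dehydrogenases, whose NAD-dependent and NADP-dependent forms make 2-oxoglutarate. Between backgrounds in resistant cells and in the interaction 0 of 12 were called, beside 4.37% and 5.87% of all genes, and 1 and 3 genes, respectively, had an unadjusted limma p under 0.05.

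**Figure D4:**
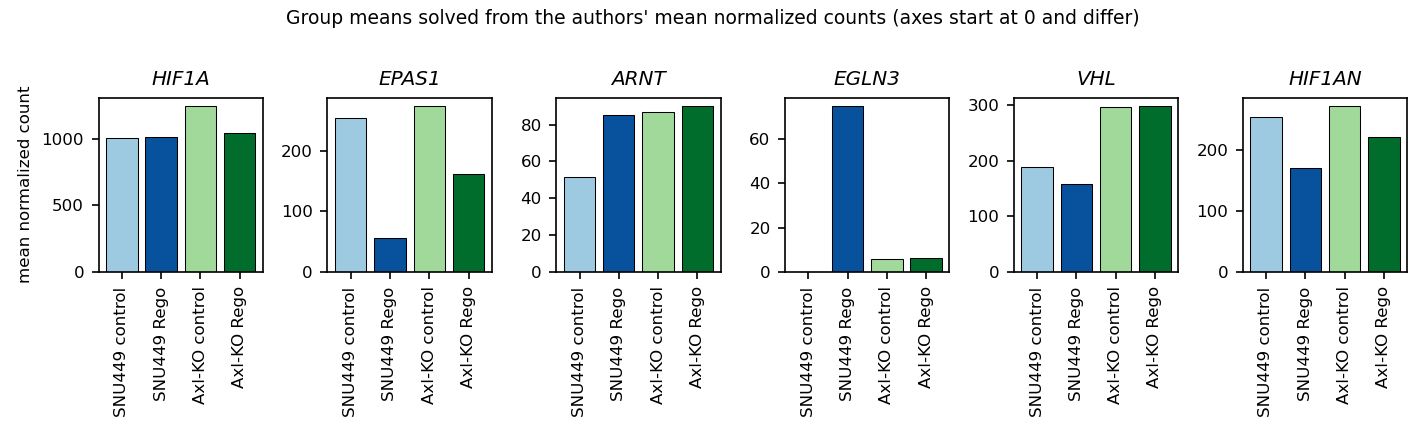
Mean normalized counts of the 6 genes per group, solved from the authors' means of 7 tables (4 for EGLN3). Bars start at 0, each panel has an axis of its own, and no error is shown because the authors' means carry none. EGLN3 stands at 75.1 in Rego-resistant SNU449 and at 0 to 6.15 in the other groups, and EPAS1 is lowest in Rego-resistant SNU449 at 55.3.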

How the data were processed

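RNA of 12 samples, 3 libraries for each of 4 groups, had been sequenced by the authors as QuantSeq 3′ libraries. Per the submitters' notes and the study's methods, the authors trimmed reads with cutadapt 4.0, aligned them with STAR 2.5.3a to GRCh38 and the spike-ins, counted them per GENCODE 40 gene, dropped genes with few counts, and ran DESeq2 with a term for the preparation date. Groups were taken from the sample titles.

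The library values of the deposited tables were read as scores (the authors' variance-stabilized levels, freed of the preparation effect, taken out of log2 and rounded), because they are whole numbers of at least 12 whose means over the libraries of a replicate number are nearly equal. The mean normalized count in the deposited tables was taken as a signal that the authors had averaged over the libraries of a table. The tables also hold the authors' fold changes, their errors, test statistics, p-values and group averages, which were not used. The 32 spike-in rows were left out, except for the centring below.

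From the table over 12 libraries that compares the backgrounds, log2(value + 1) was fitted in R 4.3.3 by limma 3.58.1, using lmFit and eBayes with a trend, over the 4 groups and a block for the replicate number. The block was kept because a removal of the preparation effect along the replicate number was inferred, which uses up degrees of freedom. It was inferred from the nearly equal means over each replicate number, and the preparation date of each library was not given. Deviations of same-numbered libraries from their group means had r between -0.54 and 0.03. Nearly equal means over a replicate number by themselves draw such r below 0. These r therefore cannot show whether the numbers pair the samples. A minimum mean value of 5 was set, and no gene fell below it. Fits were tested on simulated data. Group means of normalized counts were solved by non-negative least squares from 7 tables. The 40 tested genes nearest to each gene on its chromosome were its neighbours. Intervals are 95% confidence intervals from limma.

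The 8 genes and all gene lists were chosen with earlier results of these data known, and the lists were written by hand from general knowledge. Named are the 8 genes, AXL, from each list the 3 genes with the largest difference among those called in a comparison, and for each called gene of the 8 the 3 genes with the highest Pearson r over the libraries. SPTSSA, further list members, and the overlapping genes were named after their values were seen. Alternatives were no replicate block, the pairwise tables, the other 12-library table, no pseudocount, a mean normalized count of at least 50, no filter, upper-quartile scaling, spike-in centring, eBayes without trend, leaving out each library and, chosen after seeing the data, counting only genes with a row in all 6 pairwise tables. Coordinates are those of GENCODE 44, which are identical to the file's for the 6 genes.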

Additional observations from a re-analysis of the deposited data

Results flagged for a closer look

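The effect of Rego on EGLN3 differed between SNU449 and SNU449-Axl-KO cells by the test of the difference itself, which was the 1 such difference among the 6 genes. The interaction was -2.10 on the log2 scale (SE 0.382, limma adjusted p = 0.00281). EGLN3 passed the authors' filter on low counts only through Rego-resistant SNU449, where it is high, so that this p is no independent support. The interaction was -2.53 to -1.78 in fits that left out 1 of the 12 libraries, with adjusted p-values up to 0.0164. EGLN3 was near the low end of the library values in 9 of 12 libraries, where the scale compresses differences.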

How the results depend on the processing

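Of 617 values of the 6 genes under alternatives, 582 kept their direction and their side of the threshold, 4 passed it newly and 31 changed sign. All 80 values of the 4 called results (EGLN3 and EPAS1) kept both. Except for EPAS1 with Rego in SNU449, these are results of EGLN3. That gene has a row only through the group where it is high, so that its stability is no independent support. The difference with Rego in SNU449 was 1.64 to 2.34 for EGLN3 and -1.70 to -1.13 for EPAS1 when 1 library was left out, and 1.41 to 1.95 and -1.41 to -1.13 under the other alternatives. EGLN3 without Axl in resistant cells was -2.35 to -1.60 and -1.96 to -1.18, respectively. With a mean normalized count of at least 50, EGLN3 (mean 21.7) was not tested, and over genes with a row in all 6 pairwise tables, a setting chosen after seeing the data, it was not counted. In both the genes called numbered 1 with Rego in SNU449, 0 between backgrounds in resistant cells and 0 in the interaction. With spike-in centring 2 were called between backgrounds in resistant cells, VHL being added, and without Rego-resistant SNU449-Axl-KO replicate 3 EPAS1 was called with Rego there, so that leaving out 1 library gave 0 to 1 calls. In the other comparisons it gave 2 to 3 with Rego in SNU449 and no change elsewhere.

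Without the replicate block 2175, 1552, 2182, 1503 and 1826 of all genes were called with Rego in SNU449, with Rego in SNU449-Axl-KO, between backgrounds in control and in resistant cells and in the interaction, against 1219, 678, 1163, 682 and 916 with it; in the group only ARNT was added. In the pairwise tables with the block 603 genes were called with Rego in SNU449, 603 between backgrounds in control and 1160 in resistant cells. With a mean normalized count of at least 50 the counts were 746, 491, 787, 450 and 652. Spike-in centring moved the median difference of all genes to 0.05, 0.14, 0.21, 0.31 and 0.10. With it 1799 were called between backgrounds in resistant cells, and the share of higher calls was 84.2% with Rego in SNU449-Axl-KO, 84.5% and 96.2% between backgrounds in control and resistant cells and 63.4% in the interaction, against 58.4%, 54.0%, 55.9% and 49.7%. Leaving out 1 library gave 740 to 1299, 205 to 891, 540 to 1275, 219 to 826 and 523 to 922 calls. HIF targets called with Rego in SNU449 numbered 9 to 14 without 1 library and 8 to 18 otherwise.

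The values that changed sign were all small, with a main difference of at most 0.19, and the cause was not tested. With upper-quartile scaling EPAS1 between backgrounds in control cells was -0.0163. With spike-in centring ARNT was 0.115 and VHL 0.116 with Rego in SNU449-Axl-KO, HIF1AN was 0.182 and 0.243 between backgrounds in control and resistant cells and 0.0614 in the interaction, and ARNT was 0.100 between backgrounds in resistant cells. When 1 library was left out, the values between backgrounds in control cells were -0.288 to 0.230 for EPAS1, -0.142 to 0.0580 for HIF1AN, -0.108 to 0.373 for HIF1A and -0.00561 to 0.419 for EGLN3. With Rego in SNU449-Axl-KO they were -0.149 to 0.110 for ARNT, -0.158 to 0.220 for VHL and -0.428 to 0.124 for EGLN3. Between backgrounds in resistant cells they were -0.135 to 0.0888 for HIF1AN, and in the interaction -0.101 to 0.277 for VHL and -0.114 to 0.110 for HIF1AN. Read depth per library is unknown. For EGLN3, 9 libraries lay at the low end, where the scale compresses differences, so that differences among them could be missed.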
